A study of Mus musculus with 8 samples.

Results

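The transcripts of 10 protein kinases that act in mitosis were followed in whole lungs of mice with and without transgenic p52. They are the Aurora kinases Aurka and Aurkb, the Polo-like kinases Plk1 and Plk4, the cyclin-dependent kinase Cdk1, the spindle checkpoint kinases Bub1, Bub1b and Ttk, the centrosome kinase Nek2, and Melk. The 10 genes were chosen by name, and each had 1 probe set with a single gene symbol, among the 18820 genes that had one. RNA was read on 8 arrays in 4 groups of 2 arrays, and each array held the pooled RNA of 3 lungs, so that a group stood for 6 FVB mice aged 8 to 12 weeks with males and females balanced. All groups drank dox (doxycycline, 2 g/L, with 2% sucrose) for 1 week. WT dox mice were littermates negative for the transgenes, and CCSP-p52 dox mice carried CCSP-rtTA and CCSP-tTS/(tet-O)7-FLAG-p52, by which dox switches on FLAG-tagged p52 in airway epithelium from the promoter of club cell secretory protein. WT LPS and CCSP-p52 LPS mice also received LPS (lipopolysaccharide of bacterial walls, which causes acute lung inflammation) into the trachea 48 hours before harvest. The transgene is active in airway epithelial cells, whereas the arrays read the whole lung, in which these cells are a minority. Values are log2 expression values, a difference between groups on that scale is the logFC, and a pool is the pooled RNA of 1 array.

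Mitotic kinases pass a cell from G2 through division in order. Cdk1 bound to cyclin B drives entry into mitosis, Plk1 and Aurka build the spindle poles, and Aurkb, in the chromosomal passenger complex, corrects faulty attachments of chromosomes to the spindle. Ttk (also Mps1), Bub1 and Bub1b (BubR1) hold the cell before anaphase until all chromosomes are attached. Plk4 starts the copying of centrioles, Nek2 helps the centrosomes part, and Melk is a kinase made in dividing cells. Their transcripts are made mainly in G2 and mitosis, so a tissue of mostly resting cells, such as the adult lung, holds little of them, and their level follows the share of cells that divide. In RNA of a whole tissue, more dividing cells and more of these transcripts per dividing cell cannot be told apart.

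The arrays had medians of 7.48 to 7.54, and the pools of 1 group correlated at 0.981 to 0.994 across all probe sets. Nfkb2, the gene of p100 and p52, lay at 9.51 and 9.58 in WT dox lungs and at 10.20 and 10.33 in CCSP-p52 dox lungs. With LPS it lay at 10.83 and 10.56 in WT lungs and at 11.28 and 10.53 in CCSP-p52 lungs. CCSP-p52 LPS pool 2 was thus below both WT LPS pools, and Nfkb2 did not separate the genotypes with LPS. One array stood apart. WT LPS pool 2 held genes of squamous epithelium at a mean of 10.50, against 6.26 to 6.49 on the other 7 arrays, and striated muscle genes at 9.79 against 7.30 to 8.54. CCSP-p52 LPS pool 2 had less of the monocyte and recruited macrophage genes (mean 9.58) than the other 3 LPS pools (10.14 to 10.52). Values of the kinases with LPS are given without these arrays as well in most comparisons, and those of the lists around them in some.

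Transcription of such genes in G2 and mitosis is known to run through CHR elements (cell cycle genes homology region, with the core letters TTTGAA or TTCGAA), which the DREAM and B-Myb complexes bind, and through CCAAT boxes, bound by NF-Y. NF-κB dimers bind a κB site. These letters were searched on both strands in windows from 250 bases before to 50 bases after a RefSeq transcript start (build GRCm38.p6), which the reference table held for 9 of the 10 genes, all but Aurkb. The windows of 4 genes are printed 5′ to 3′ on the strand of the gene. They are those of Cdk1 and Plk1, whose values ran most closely together, of Bub1b, and of Plk4, the window with a κB match. Bub1b was taken for a p52 effect that differed between the LPS states at the unadjusted cut-off given below, without passing adjustment. Capitals mark each match of either CHR core, of CCAAT (which reads ATTGG where it lies on the other strand) or of the κB consensus. The windows are chr10:69352863-69353162 on the minus strand for Cdk1, chr7:122159185-122159484 on the plus strand for Plk1, chr2:118597961-118598260 on the plus strand for Bub1b and chr3:40799701-40800000 on the plus strand for Plk4.
Cdk1: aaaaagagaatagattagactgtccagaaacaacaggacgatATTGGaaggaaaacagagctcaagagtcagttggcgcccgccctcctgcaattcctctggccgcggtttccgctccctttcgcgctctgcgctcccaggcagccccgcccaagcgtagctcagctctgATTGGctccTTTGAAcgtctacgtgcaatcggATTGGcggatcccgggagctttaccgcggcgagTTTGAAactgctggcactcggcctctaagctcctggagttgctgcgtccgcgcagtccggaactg
Plk1: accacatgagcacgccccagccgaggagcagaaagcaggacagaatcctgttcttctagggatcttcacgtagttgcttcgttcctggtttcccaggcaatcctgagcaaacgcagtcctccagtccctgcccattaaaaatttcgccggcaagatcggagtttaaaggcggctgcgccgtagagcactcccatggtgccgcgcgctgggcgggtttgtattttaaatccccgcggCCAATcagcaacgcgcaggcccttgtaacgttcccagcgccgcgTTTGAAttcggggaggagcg
Bub1b: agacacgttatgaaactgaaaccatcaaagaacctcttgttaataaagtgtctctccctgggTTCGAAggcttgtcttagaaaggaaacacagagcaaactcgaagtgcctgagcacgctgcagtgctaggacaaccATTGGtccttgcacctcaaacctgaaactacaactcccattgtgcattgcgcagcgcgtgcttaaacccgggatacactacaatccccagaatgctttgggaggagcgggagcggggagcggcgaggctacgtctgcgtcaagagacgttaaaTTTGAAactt
Plk4: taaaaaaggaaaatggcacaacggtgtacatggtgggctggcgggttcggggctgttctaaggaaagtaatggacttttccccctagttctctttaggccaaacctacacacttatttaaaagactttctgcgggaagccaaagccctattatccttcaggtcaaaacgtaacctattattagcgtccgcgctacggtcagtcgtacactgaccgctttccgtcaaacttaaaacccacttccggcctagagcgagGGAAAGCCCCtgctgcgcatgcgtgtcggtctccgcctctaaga

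TTTGAA was found in 5 of the 9 windows, against 17.9% of all 32851 windows in the table. In Cdk1 it began 71 and 15 bases before the start, in Plk1 30, in Aurka 32 and in Bub1b 40 bases after the first transcribed base, and in Ttk 7 bases after it on the other strand. TTCGAA, which reads the same on both strands and is held by 1.6% of all windows, lay in Bub1 14 bases after the first transcribed base and in Bub1b 188 bases before it. CCAAT was found in 7 of the 9 windows, against 37.4% of all, with 3 matches in Cdk1. A CHR core together with CCAAT was held by 6 of the 9 windows, those of Aurka, Plk1, Cdk1, Bub1, Bub1b and Ttk, against 7.5% of all. Nek2 held CCAAT only, and Melk held none of the motifs. The κB consensus was found in Plk4 alone, starting 6 bases after the first transcribed base on the other strand, and in 4.5% of all windows. No match overlapped another. A match of these letters is a description of the window, and binding was not measured.

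In lungs on dox alone, Aurkb and Cdk1 were higher in CCSP-p52 than in WT mice at the cut-off used here, a logFC of at least 0.41, the size by which the study ranked genes, with an unadjusted p of at most 0.05, which was added to it here. These are 2 of the 10 kinases, where 0.569% of all 18820 genes were higher at that cut-off. All 10 kinases had a positive logFC, from 0.14 for Nek2 to 0.61 for Cdk1, with a median of 0.38 against -0.0027 over all genes. For each of the 10, both CCSP-p52 dox pools lay above both WT dox pools, which was so for 16.5% of all genes. None passed adjustment over all probe sets tested (adjusted p = 1.00 for each, limma).

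Cdk1, the kinase of mitotic entry, was at 7.50 and 7.37 in WT dox lungs and at 8.07 and 8.01 in CCSP-p52 dox lungs. The distance between the genotypes was larger than that between the pools of either, a logFC of 0.61 (standard error 0.25, 1.52-fold, 95% interval 0.019 to 1.19, n = 2 pools per group). Aurkb, the kinase of the passenger complex, was at 7.86 and 7.64 in WT dox lungs and at 8.30 and 8.34 in CCSP-p52 dox lungs. Its logFC was 0.57 (standard error 0.19, 1.49-fold, 95% interval 0.11 to 1.04), and the WT pools, which differed by more than the CCSP-p52 pools, stayed well below them. Aurka, the Aurora kinase of the spindle poles, had 7.40 and 7.37 against 7.56 and 7.67, a logFC of 0.23 (standard error 0.20) whose interval ran from -0.24 to 0.70. Plk1 had 7.53 and 7.38 in WT dox lungs and 7.91 and 8.04 in CCSP-p52 dox lungs. Its logFC of 0.53 (standard error 0.23) was larger than the cut-off, but its unadjusted p of 0.058 was not within it. With the pool number as a replicate block the same logFC had an unadjusted p of 0.038 and was at the cut-off, as were Aurkb and Cdk1.

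None of the checkpoint kinases was at the cut-off on dox alone, and their logFC lay between that of Aurka and those of Aurkb, Plk1 and Cdk1. Bub1b was at 6.66 and 6.63 in WT dox lungs and at 7.00 and 7.07 in CCSP-p52 dox lungs, a logFC of 0.39 (standard error 0.17) with an unadjusted p of 0.055. Bub1 had 6.84 and 6.55 against 7.02 and 7.07, and the distance between its WT pools was nearly as large as its logFC of 0.35 (standard error 0.37). Ttk had 5.94 and 5.75 against 6.27 and 6.16, a logFC of 0.38 (standard error 0.25). Its WT dox values lay below the lower quartile of all probe sets on those arrays (6.02 and 6.07).

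The centrosome kinases and Melk were not at the cut-off either. Plk4, which starts centriole copying, was at 7.73 and 7.66 in WT dox lungs and at 7.96 and 8.03 in CCSP-p52 dox lungs, a logFC of 0.30 (standard error 0.17). Nek2 had the smallest difference, with 7.64 in both WT dox pools, against 7.69 and 7.86 for CCSP-p52 dox, a logFC of 0.14 (standard error 0.15). Melk was at 6.54 and 6.40 against 6.84 and 6.88, a logFC of 0.39 (standard error 0.17) with an unadjusted p of 0.052.

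**Figure D1:**
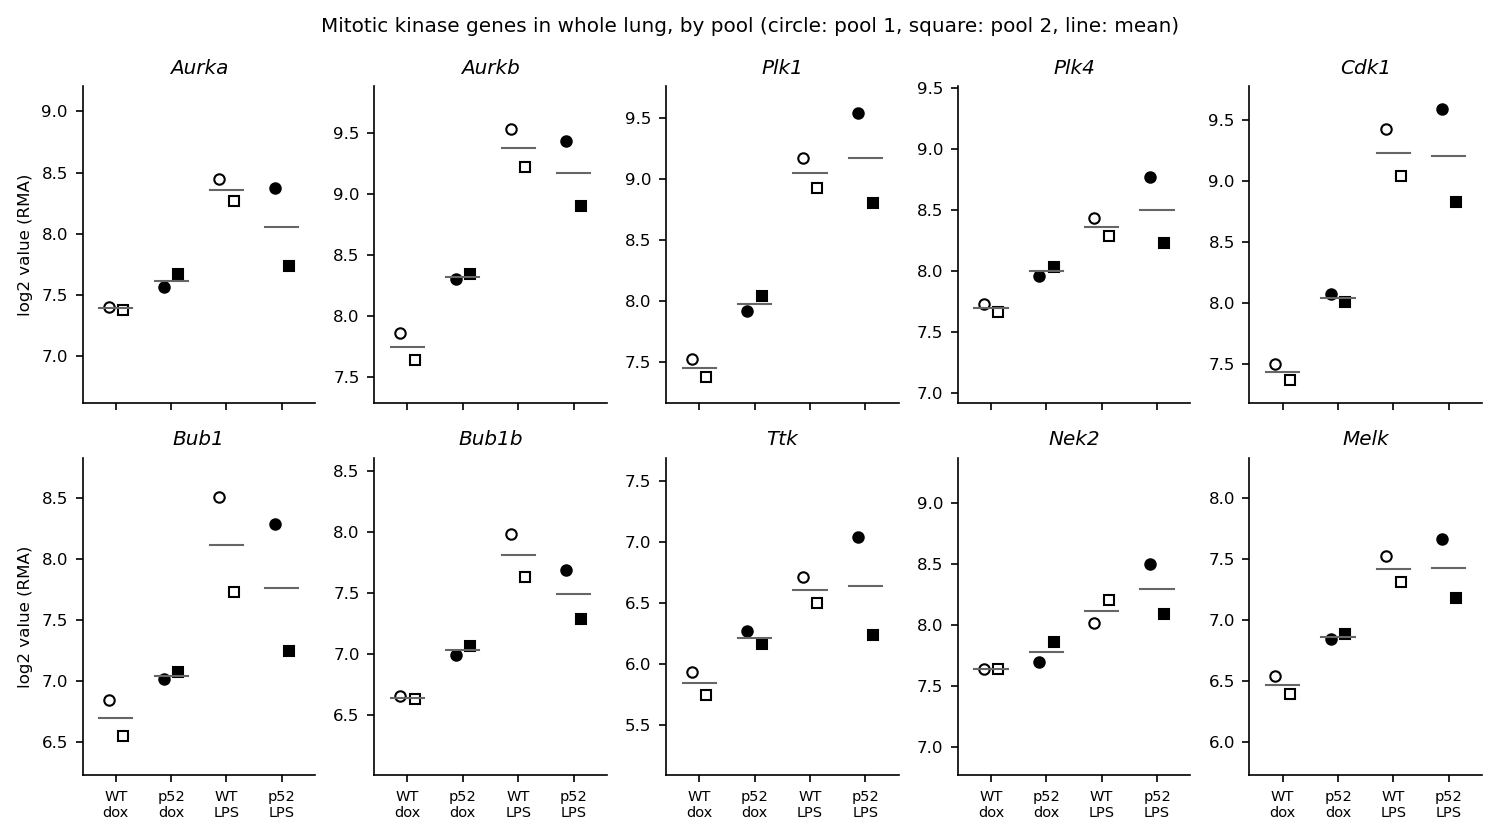
Log2 values of the 10 kinases on each of the 8 arrays (y axis, log2, with a span of 2.6 in every panel) in the 4 groups (x axis). Circles are pool 1, squares pool 2, open symbols WT, filled symbols CCSP-p52 and lines the means of the 2 pools. In every panel both CCSP-p52 dox pools lie above both WT dox pools, and with LPS the pools of the genotypes overlap.

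After LPS the genotypes no longer separated in the kinases, nor in Nfkb2. Between CCSP-p52 LPS and WT LPS lungs no kinase was at the cut-off in either direction, where 2.06% of all genes were, 5 of the 10 had a positive logFC, and the median was -0.0081 against 0.0046 over all genes. The pools of the genotypes overlapped for all 10 kinases, whereas they did not overlap for 31.3% of all genes. The logFC ran from -0.35 for Bub1 (standard error 0.37) and -0.32 for Bub1b (standard error 0.17) to 0.19 for Nek2 (standard error 0.15). Cdk1 was at 9.43 and 9.04 in the WT LPS pools and at 9.59 and 8.83 in the CCSP-p52 LPS pools, so that the CCSP-p52 pools lay on both sides of the WT pools, and its logFC was -0.023 (standard error 0.25). Aurkb was at 9.53 and 9.22 in the WT LPS pools and at 9.43 and 8.90 in the CCSP-p52 LPS pools, a logFC of -0.20 (standard error 0.19). With 1 pool left out, the median of the 10 ran from -0.39 without CCSP-p52 LPS pool 1 to 0.30 without CCSP-p52 LPS pool 2. It was -0.16 without WT LPS pool 2. Calls at the cut-off, lower or higher, also came up in these fits. Without WT LPS pool 1 the median was 0.10. The sign of the median under LPS thus turned with the LPS pool that was left out, in either genotype.

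A second model took p52 and LPS as additive factors over the 8 arrays. In it no kinase reached the cut-off (0.228% of all genes were higher), while 2 did without CCSP-p52 LPS pool 2, Plk1 and Cdk1. The additive logFC was positive for 8 of the 10, with a median of 0.19. It was largest for Plk1, at 0.32 (standard error 0.17), followed by Cdk1 at 0.29 (standard error 0.20), and slightly negative for Aurka at -0.038 (standard error 0.16) and Bub1 at -0.0021 (standard error 0.27).

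The p52 effect was smaller with LPS than without for Aurkb and Bub1b at the cut-off, 2 of the 10 against 2.38% of all genes. For Aurkb the effect went from 0.57 without LPS to -0.20 with LPS, a difference of -0.78 (standard error 0.28). For Bub1b it went from 0.39 to -0.32, a difference of -0.71 (standard error 0.24). In WT lungs Bub1b was at 7.99 and 7.64 after LPS and in CCSP-p52 lungs at 7.69 and 7.29, so that the higher CCSP-p52 pool lay just above the lower WT pool. The difference was negative for 9 of the 10, all but Nek2 (0.047, standard error 0.22), with a median of -0.47 against 0.0062 over all genes, and none passed adjustment (adjusted p = 0.91 for Aurkb and for Bub1b, limma). Cdk1, at -0.63 (standard error 0.35), came to the cut-off (unadjusted p = 0.045) when the pool number was a replicate block. The number at the cut-off was 9 without CCSP-p52 LPS pool 1, with a median of -0.81, and 2 without CCSP-p52 LPS pool 2, with a median of -0.17. It was 0 in the fit without WT LPS pool 1 and in those without the second pool of either dox group.

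LPS raised all of the kinases in WT lungs. All 10 were higher at the cut-off 48 hours after LPS, where 10.7% of all genes were, and 8 of the 10 passed adjustment (8.07% of all genes). The median logFC was 1.07 against 0.015 over all genes. For each kinase both WT LPS pools lay above both WT dox pools, as for 6575 of all 18820 genes. Cdk1 had the largest difference, from 7.50 and 7.37 to 9.43 and 9.04, a logFC of 1.80 (standard error 0.25, 3.48-fold, adjusted p = 0.0070, limma). Aurkb went from 7.86 and 7.64 to 9.53 and 9.22, a logFC of 1.62 (standard error 0.19, 3.08-fold, adjusted p = 0.0055, limma). Plk1 went from 7.53 and 7.38 to 9.17 and 8.93, a logFC of 1.60 (standard error 0.23, 3.03-fold, adjusted p = 0.0079, limma). For these 3 the distance between the groups was several times that between the pools. Bub1 went from 6.84 and 6.55 to 8.51 and 7.73, a logFC of 1.42 (standard error 0.37), and its LPS pools differed by 0.78, the most of any kinase in WT lungs. Bub1b rose by a logFC of 1.17 (standard error 0.17), Aurka by 0.97 (0.20), Melk by 0.95 (0.17) and Plk4 by 0.66 (0.17). Ttk, at 0.77 (standard error 0.25), and Nek2, at 0.47 (standard error 0.15), were at the cut-off without passing adjustment (adjusted p = 0.066 and 0.070, limma). The calls after adjustment were fewer with single arrays left out, 0 of 10 without WT dox pool 2, 1 without WT dox pool 1 and 4 without WT LPS pool 1, while 8, 9 and 9 were at the cut-off. Without WT LPS pool 2, the array with squamous and muscle genes, the median was 1.20, with 9 at the cut-off and 6 after adjustment.

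In CCSP-p52 lungs LPS raised 7 of the 10 at the cut-off (8.87% of all genes), and 3, Aurkb, Plk1 and Cdk1, passed adjustment (4.31% of all genes). The median logFC was 0.54 against -0.031 over all genes. Plk1 went from 7.91 and 8.04 to 9.54 and 8.80, a logFC of 1.19 (standard error 0.23), Cdk1 from 8.07 and 8.01 to 9.59 and 8.83, a logFC of 1.17 (standard error 0.25), and Aurkb from 8.30 and 8.34 to 9.43 and 8.90, a logFC of 0.85 (standard error 0.19). Aurka (0.44, standard error 0.20), Bub1 (0.72, standard error 0.37) and Ttk (0.42, standard error 0.25) were not at the cut-off. Bub1, from 7.02 and 7.07 to 8.29 and 7.25, was at it with the replicate block. These values rested on the CCSP-p52 LPS pools. The median was 0.81 without pool 2 and 0.29 without pool 1. Aurkb, Plk1 and Cdk1 were at the cut-off in both of these fits, and alone without pool 1 or CCSP-p52 dox pool 1. No kinase passed adjustment in a fit that lacked 1 of the 4 dox pools. The difference between the LPS effects in the 2 genotypes is the same contrast as the difference between the p52 effects given above.

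Over both genotypes LPS raised all 10 kinases at the cut-off (9.89% of all genes) and after adjustment (13.5% of all genes), with logFC from 0.50 for Nek2 to 1.48 for Cdk1 and a median of 0.78. For 9 of the 10, all but Ttk, every one of the 4 LPS pools lay above every one of the 4 pools without LPS, as for 15.1% of all genes. Ttk was the exception because CCSP-p52 LPS pool 2 (6.24) lay under CCSP-p52 dox pool 1 (6.27).

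**Figure D2:**
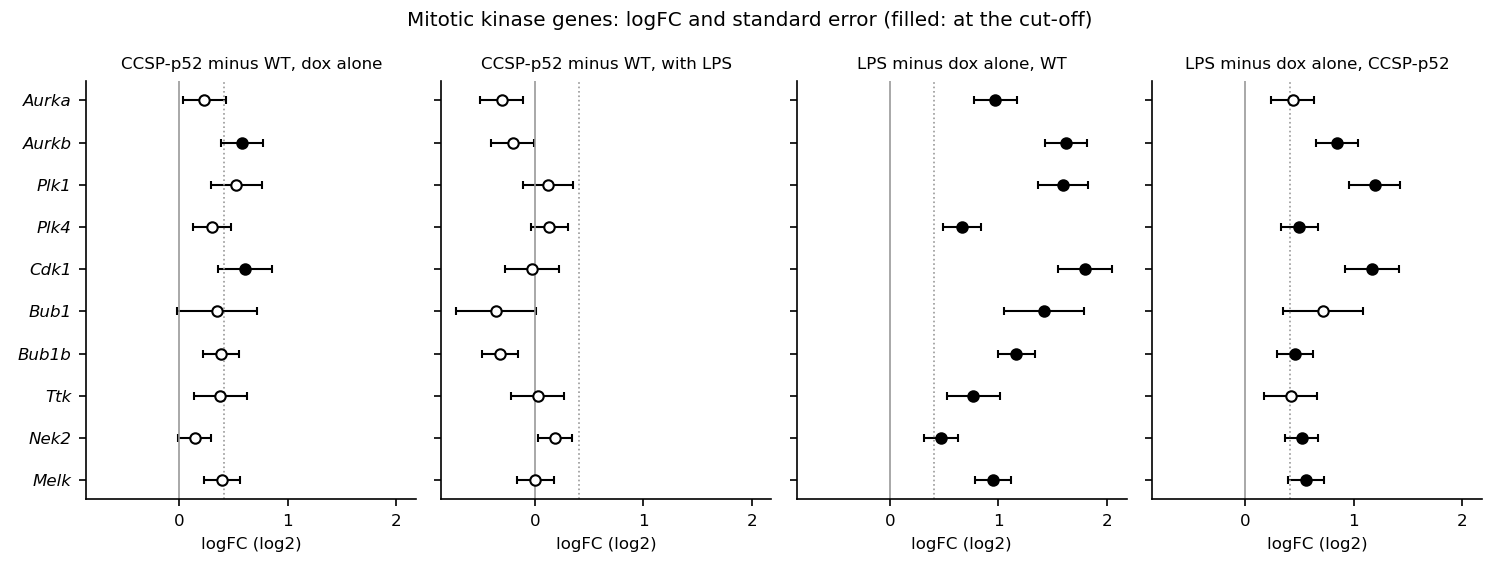
logFC of the 10 kinases (x axis, log2) with its standard error in the 2 p52 comparisons and the 2 LPS comparisons of the 4-group model. Filled points are at the cut-off, the solid line marks 0 and the dotted line 0.41. All 10 points lie right of 0 for p52 on dox alone, around 0 for p52 with LPS, and at 0.47 to 1.80 for LPS in WT lungs.

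The 10 kinases moved together between pools of the same group as well. In CCSP-p52 LPS lungs pool 2 lay below pool 1 for all 10, by 0.41 for Bub1b to 1.04 for Bub1, with a median difference of -0.59, whereas the median over all genes was -0.0047. In WT LPS lungs pool 2 lay below pool 1 for 9 of 10, all but Nek2, with a median of -0.23 (all genes -0.035). In WT dox lungs it did for all 10, with a median of -0.14 (all genes -0.016). In CCSP-p52 dox lungs the pools differed least, with pool 2 below pool 1 for 2 of 10 (Cdk1 and Ttk) and a median of 0.060 (all genes 0.013). Of all genes, pool 2 was lower for 50.7% in CCSP-p52 LPS, 57.0% in WT LPS, 54.6% in WT dox and 46.6% in CCSP-p52 dox lungs. The median p52 difference on dox alone, 0.38, thus exceeded the median distance between the pools of either group in it, and the median distance between the CCSP-p52 LPS pools exceeded it. Over the 8 arrays the pairwise correlations of the 10 were between 0.79 (Bub1 and Nek2) and 0.995 (Plk1 and Cdk1), with a median of 0.946 over 45 pairs. For deviations from the group means they were between 0.42 (Bub1b and Nek2) and 0.996 (Aurka and Plk4), with a median of 0.942. These are descriptions over 8 arrays that share the same pools and normalization.

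Among all other genes, those whose values over the 8 arrays ran most like the mean of the 10 kinases, each centred on its own mean, were E2f8 (Pearson's r = 0.998), an E2F factor of dividing cells, Cks2 (0.998), the small partner subunit of Cdk1, Cenpm (0.998), a centromere protein, Jpt2 (0.997), Tpx2 (0.996), the activator of Aurka, Incenp (0.996), the scaffold that binds Aurkb, Cdca3 (0.996), a cell division cycle gene, and Sgo2a (0.996), a shugoshin that protects the cohesion of centromeres. They were chosen on the same 8 arrays, so that a p52 logFC of the same sign as the kinases on dox alone, 0.24 for Cdca3 to 0.63 for Cks2, follows from the choice.

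Around the kinases, 8 lists of other genes were read. Of 18 measured partners and activators, 3 were higher at the cut-off on dox alone and 16 had a positive logFC, with a median of 0.24. Ccna2, the cyclin of S phase and G2 that also binds Cdk1, was at 7.57 and 7.26 in WT dox lungs and at 8.22 and 8.33 in CCSP-p52 dox lungs, a logFC of 0.86 (standard error 0.23). Ccnb2, a B-type cyclin of Cdk1, was higher by 0.78 (standard error 0.26) and Cdca8, borealin of the Aurkb complex, by 0.59 (0.18). With LPS no partner was at the cut-off, the median was -0.013, and the difference between the LPS states was at the cut-off for Ccna2 (-1.01, standard error 0.33), Cdca8 (-0.79, 0.25) and Cdc25c (-0.55, 0.21), the phosphatase that activates Cdk1. LPS in WT lungs raised 12 of the 18 at the cut-off, with Ccna2 at 1.98 (standard error 0.23), and 2 were lower. Without CCSP-p52 LPS pool 2 the median p52 logFC with LPS was 0.20, and without WT LPS pool 2 it was -0.15, with no partner at the cut-off in either fit. The differences of Ccna2 and Cdca8 were at the cut-off in both of these fits, and that of Cdc25c in neither.

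Of 16 spindle checkpoint and kinetochore partners, all had a positive p52 logFC on dox alone, 3 were higher at the cut-off and the median was 0.27. Cdc20, the activator of the anaphase-promoting complex that the checkpoint holds back, was at 7.46 and 7.23 against 7.93 and 7.90, a logFC of 0.57 (standard error 0.17). Nuf2, of the kinetochore complex that binds microtubules, was higher by 0.73 (standard error 0.22), and Sgo2a by 0.48 (0.19). Mad2l1, the checkpoint protein that holds Cdc20, had 0.48 (standard error 0.21) and was not at the cut-off, and Bub3 had 0.015 (0.11). With LPS 3 of the 16 were positive, none was at the cut-off, and the median was -0.061. The p52 effect was smaller with LPS than without at the cut-off for Cdc20 and Nuf2, with a median difference of -0.33 over the 16. LPS raised 11 of the 16 in WT lungs and 4 in CCSP-p52 lungs at the cut-off. Without CCSP-p52 LPS pool 2, 15 of the 16 had a positive p52 logFC with LPS, 2 were higher at the cut-off (Trip13 and Knl1), the median was 0.16, and LPS raised 9 in CCSP-p52 lungs. In that fit 6 were higher on dox alone.

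The 12 measured subunits and enzymes of the anaphase-promoting complex, which the checkpoint inhibits, did not follow the kinases. Ube2c, the ubiquitin-conjugating enzyme of the complex, which is made in dividing cells, and the subunit Cdc23 had no probe set with a single symbol and were not analysed here. Of the 12, 0 were at the cut-off on dox alone, 3 had a positive logFC and the median was -0.024. LPS in WT lungs left 11 of them short of the cut-off, with 1 lower, Anapc5 at -0.43 (standard error 0.14), and a median of -0.15. Many of these subunits are made throughout the cell cycle.

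Of 14 inhibitors and brakes, 2 were higher at the cut-off on dox alone, with a median of -0.031 and 4 positive. Cdkn1a, the p21 inhibitor of cyclin-dependent kinases, was at 10.52 and 10.64 in WT dox lungs and at 10.99 and 11.03 in CCSP-p52 dox lungs, a logFC of 0.43 (standard error 0.14). Wee1, the kinase that restrains Cdk1, was higher by 0.47 (standard error 0.17). With LPS the p52 logFC was 0.40 for Wee1 (standard error 0.17) and 0.25 for Cdkn1a (0.14), neither at the cut-off, and without CCSP-p52 LPS pool 2 they were 0.16 and 0.048. LPS raised Cdkn1a by 1.57 in WT and 1.39 in CCSP-p52 lungs (standard error 0.14 for each).

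Relatives and other kinases of the cell cycle mostly did not follow either. Of 26 measured, 2 were higher at the cut-off on dox alone, 11 were positive and the median was -0.032. Pbk, a mitotic kinase of dividing cells, was at 6.02 and 6.11 in WT dox lungs and at 6.78 and 6.81 in CCSP-p52 dox lungs, a logFC of 0.73 (standard error 0.14), and Chek1, the kinase of the DNA damage checkpoint, was higher by 0.57 (0.22). Of the 26, Pbk alone had a p52 effect that was smaller with LPS at the cut-off. Mastl, the Greatwall kinase of mitotic entry, had 0.53 (standard error 0.26) on dox alone and was not at the cut-off. Of the nearest relatives, Aurkc had -0.026 (standard error 0.15), Plk2 -0.29 (0.14), Plk3 -0.067 (0.15) and Plk5 -0.053 (0.15), none at the cut-off, and the 8 measured members of the Nek family other than Nek2 were not at it either. After LPS in WT lungs Plk3, a stress-induced Polo kinase, was higher by 0.73 (standard error 0.16) and Plk2 fell by 0.68 (0.14), so that the Polo family did not move as one. Both were at the cut-off also without WT LPS pool 2, at 0.98 (0.11) and -0.58 (0.17).

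The transcription factors named for genes of G2 and mitosis had no call on dox alone. Of 21 measured, 15 were positive with a median of 0.079. E2f7 had 0.37 (standard error 0.11), below the cut-off in size, and E2f8 had 0.49 (0.25), which came to the cut-off without CCSP-p52 LPS pool 2. With LPS the p52 effect on E2f7 was -0.14 (standard error 0.11), and the difference of -0.51 (0.16) was at the cut-off, also when the second pool was left out of WT LPS (-0.55) or of CCSP-p52 LPS (-0.43). Mybl2, the B-Myb factor of the DREAM relatives, had 0.21 (standard error 0.11) on dox alone and rose by 0.49 (0.11) with LPS in WT lungs. Foxm1, a driver of these genes, and Ccnb1, the main cyclin of Cdk1, were not analysed here, since they had no probe set with a single symbol.

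The general markers of proliferation moved as the kinases did. All 10 had a positive p52 logFC on dox alone, 6 were higher at the cut-off and the median was 0.49. Mki67, the marker used to stain dividing cells, was at 8.12 and 7.77 in WT dox lungs and at 8.85 and 8.90 in CCSP-p52 dox lungs, a logFC of 0.93 (standard error 0.26). Top2a, the topoisomerase of dividing cells, was higher by 0.87 (standard error 0.22), Rrm2 by 0.57 (0.22), and the replication licensing genes Mcm6 by 0.58 (0.14), Mcm5 by 0.50 (0.19) and Mcm2 by 0.47 (0.15). Ccnd1, which carries the signal to enter the cycle, had 0.076 (standard error 0.11). With LPS 5 of the 10 were positive, none was at the cut-off and the median was -0.00013, which became 0.13 without CCSP-p52 LPS pool 2 and -0.15 without WT LPS pool 2, again with none at the cut-off. The p52 effect on 4 of the 10, Mki67, Top2a, Mcm2 and Mcm6, was smaller with LPS than without at the cut-off. The median difference of the 10 was -0.50. None of the genes of the 8 lists passed adjustment in the p52 comparison on dox alone, with LPS or in the difference between the LPS states (limma). Of the 4 measured NF-κB subunits, Nfkb2 itself was higher at the cut-off on dox alone, by 0.72 (standard error 0.23), while Rela (-0.029, 0.12), Relb (0.085, 0.21) and Rel (-0.25, 0.27) were not. With LPS none of the 4, Nfkb2 included, was at the cut-off between the genotypes.

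**Figure D3:**
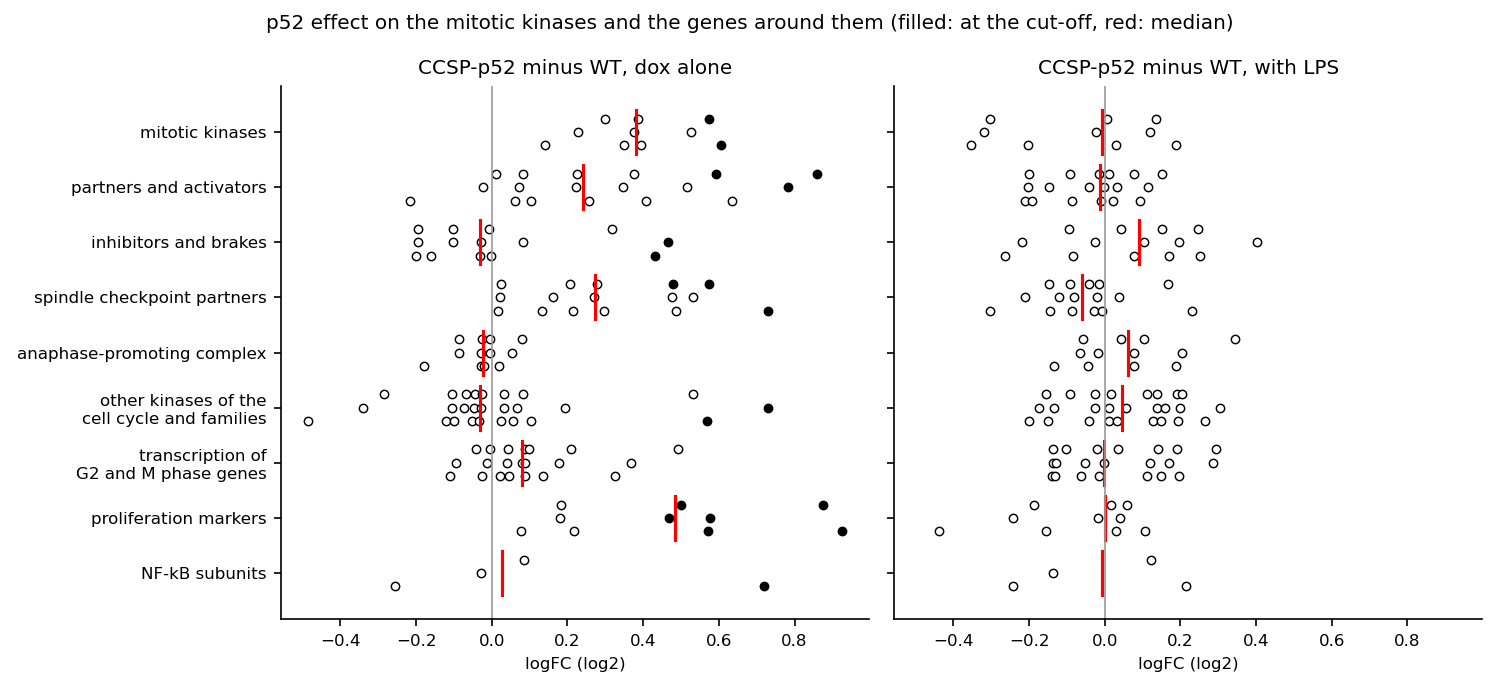
p52 logFC (x axis, log2) of each gene of the 10 mitotic kinases and of 8 lists around them, on dox alone (left) and with LPS (right). Each point is a gene, filled points are at the cut-off and red bars are medians. On dox alone the kinases, their partners, the checkpoint genes and the proliferation markers have medians of 0.24 to 0.49, with 2 of the 18 partners left of 0, while the anaphase-promoting complex, the inhibitors and the other kinases centre near 0.

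Cell types were read from 17 lists of marker genes. On dox alone, the mean levels of the lists of blood and immune cells did not separate the genotypes. The mean level of the 6 neutrophil genes was 8.03 and 7.40 in WT dox lungs and 7.63 and 7.57 in CCSP-p52 dox lungs, and the ranges also overlapped for alveolar macrophages, monocytes and recruited macrophages, T cells, thymocytes, B cells and plasma cells, NK cells, myeloid progenitors and erythroid precursors. Of the thymocyte genes, Rag2 was at 4.18 to 4.42 and Dntt at 5.07 to 5.45 on the 4 arrays without LPS, below the lower quartile of each array, while Ptcra (6.97 to 7.03), Themis (6.87 to 7.21) and Cd8b1 (7.49 to 8.31) were above it. Of the 5 B cell and plasma cell genes, 1 was lower at the cut-off, as were 31 of all 18820 genes. The median logFC of these 5 genes was -0.42, with 1 positive. The means of 3 of the 17 lists lay lower in both CCSP-p52 dox pools than in both WT dox pools, as 16.2% of all single genes did. The club cell genes had means of 11.64 and 11.88 in WT dox lungs and 11.46 and 11.28 in CCSP-p52 dox lungs, the ciliated cell genes 8.36 and 8.66 against 8.29 and 8.35, and the endothelial genes 12.67 and 12.71 against 12.59 and 12.59. All 5 club cell genes had a negative logFC and none was at the cut-off, from -0.05 for Scgb1a1 (standard error 0.15) to -1.28 for Scgb3a1 (0.94), and Scgb3a1 was at 12.48 and 12.71 against 11.81 and 10.81. The part of these cell types in the kinase values was not tested.

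With LPS the mean of the neutrophil list was 10.90 to 11.57, against 7.40 to 8.03 on the 4 arrays without it, and that of monocytes and recruited macrophages was 9.58 to 10.52 against 7.60 to 7.95. On the 4 LPS arrays the kinases were lowest in CCSP-p52 LPS pool 2 (mean 7.85 over the 10, against 8.11 to 8.49), the array that also had the lowest means of the neutrophil, monocyte and T cell lists (10.90, 9.58 and 7.50) and the highest mean of the endothelial list (12.18, against 11.46 to 11.78). The part of these lists in the LPS values was not tested.

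**Figure D4:**
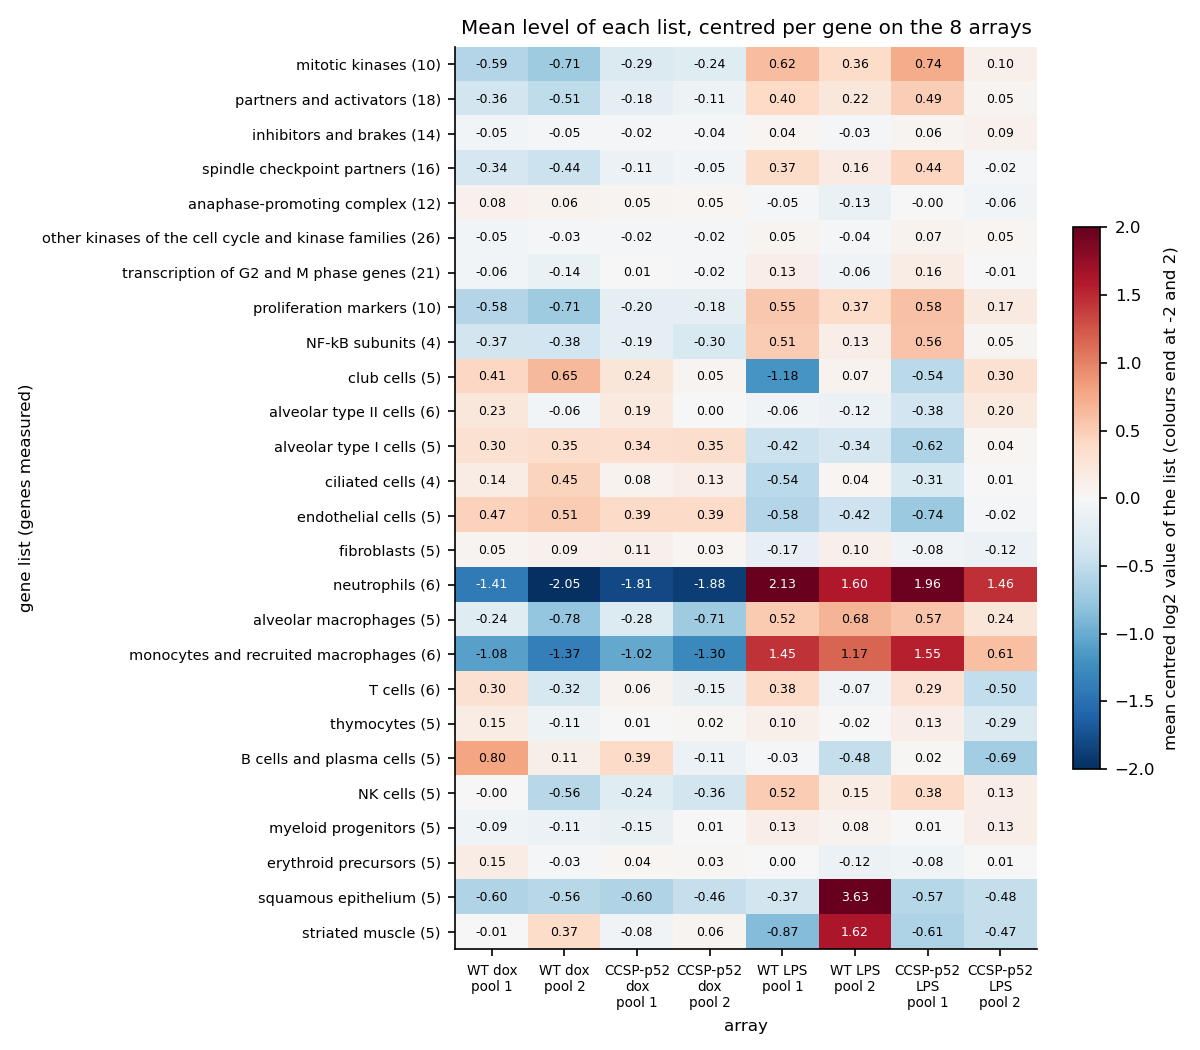
Mean level of the kinases, the 8 lists of genes around them and 17 cell type lists (rows, with the number of genes measured) on the 8 arrays (columns), each gene centred on its mean over the arrays (log2, colours end at -2 and 2 and each cell prints its value). The kinases and the proliferation markers are lowest in the WT dox pools. Like the neutrophil and monocyte lists, they are higher on every LPS array than on any array without LPS.

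Leaving out 1 array at a time showed which values rested on single pools. On dox alone each of the 10 kinases kept a positive logFC in all 8 fits, and the median was between 0.30 without WT dox pool 2 and 0.47 without WT dox pool 1. Aurkb was at the cut-off in 5 of 8 fits with a logFC of 0.46 to 0.68, Cdk1 in 4 with 0.54 to 0.67, and Plk1 in 2 with 0.45 to 0.60. No kinase was at the cut-off in the fit without WT dox pool 2 or in those without either CCSP-p52 dox pool, and Aurkb alone was without WT dox pool 1. In these fits the lone pool of a group is assumed to vary like the other groups. The share of all genes called was not taken in them, so their counts cannot be set against such a share. With 2 pools per group an exact permutation test cannot give a p below 0.33, so that the calls rest on the spread shared by the 8 arrays in limma.

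**Figure D5:**
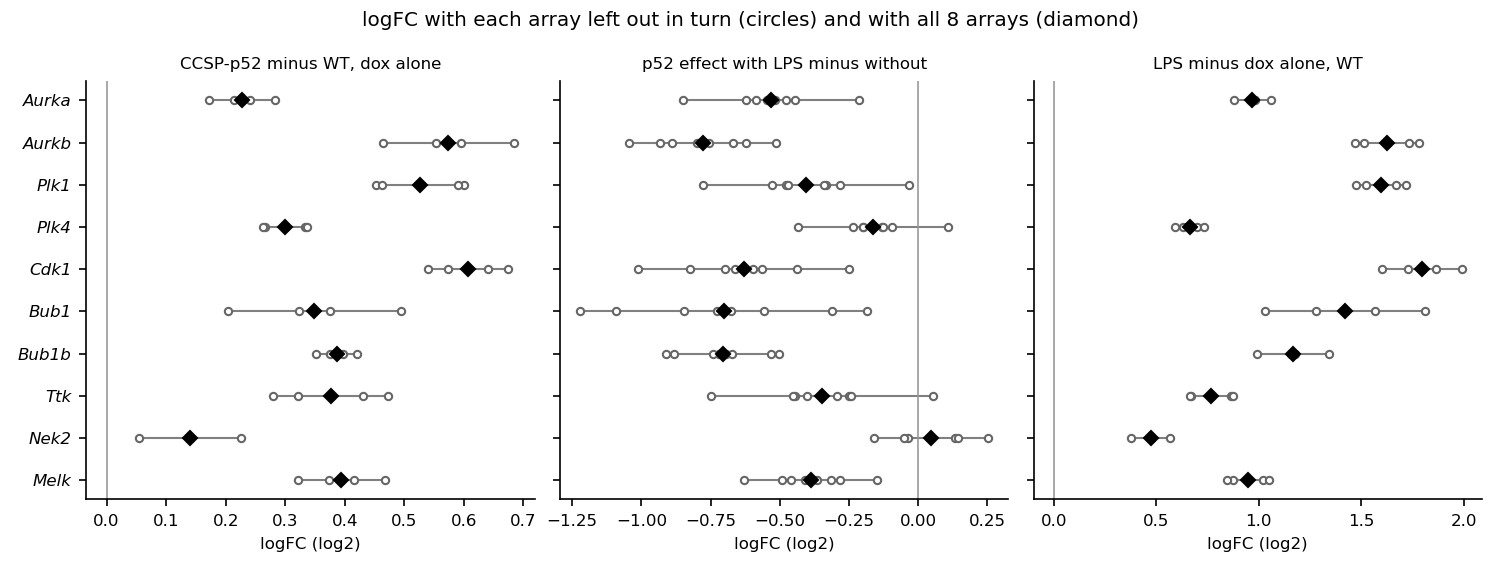
logFC of the 10 kinases (x axes, log2) with all 8 arrays (diamonds) and with each array left out in turn (circles, 8 fits; the line spans them), for p52 on dox alone (left), the p52 effect with LPS minus without (middle) and LPS in WT lungs (right). On the left and on the right all circles stay above 0, and in the middle those of Plk4, Ttk and Nek2 lie on both sides of 0.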

How the data were processed

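Whole lung RNA of 8 pools was read on Affymetrix Mouse Gene 1.0 ST arrays. The deposited log2 values are the authors' Robust Multichip Average (RMA, R package oligo), in which background is corrected, all arrays are brought to 1 distribution and the probes of a set are combined. Limma 3.20.8 is named in the submitters' processing notes. A common distribution removes any difference in overall RNA level. Gene names came from a platform table, and whether it is of the 1.0 version of the array was not settled here. Of 35556 probe sets, 21218 had 1 symbol and were tested, 1881 had several and 12457 had none. A gene with several took that of the highest mean.

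The values were fitted with limma 3.58.1 in R 4.3.3 as 4 groups and as an additive model of p52 and LPS, with Benjamini-Hochberg adjustment over the 21218 probe sets. The steps were tested on simulated data. The number of arrays limits the precision, and the median standard error was 0.129 within an LPS state. The labels do not say what pools of the same number share. Their deviations from group means correlated at 0.13 to 0.36 in all 6 pairs of groups. Within a group, however, the deviations of the pools are equal and opposite, so these correlations cannot establish that the pool number pairs the arrays. The pool number was fitted as a replicate block as an alternative only, and calls reached only with the block rest on an assumed pairing.

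The kinases, the 8 lists around them and the 17 marker lists were chosen with earlier results of these data known. Genes were named by rule, namely the 10 kinases, up to 5 genes per list at the cut-off on dox alone or in the difference between LPS states, and the 8 genes most like the kinases. Mcm5, Mad2l1, Bub3, Anapc5, Mastl, the Polo and Aurora relatives, Mybl2, Ccnd1, Trip13, Knl1, E2f8, the thymocyte genes and the NF-κB subunits were singled out with their values in view. Alternatives covered other choices of probe sets, a filter on low values, other normalization, centring, moderation and array weights, the block, only the arrays of a comparison, and each array left out. The fit without either second LPS pool, and the fits of the lists without 1 of them, were chosen after seeing the data.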

Additional observations from a re-analysis of the deposited data

Results flagged for a closer look

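For Aurkb, the Aurora kinase of the chromosomal passenger complex, the p52 effect differed between the LPS states by a tested difference of -0.78 (standard error 0.28, unadjusted p = 0.026), since it was 0.57 on dox alone and -0.20 with LPS. For Bub1b, the BubR1 checkpoint kinase, the difference was -0.71 (standard error 0.24, unadjusted p = 0.021), from 0.39 on dox alone to -0.32 with LPS. Neither passed adjustment over all genes (adjusted p = 0.91, limma), and 2.38% of all genes had a difference at the cut-off in this direction. Each was at the cut-off in 4 of the 8 fits that left out 1 array. The Aurkb difference ran from -1.04 without CCSP-p52 LPS pool 1 to -0.51 without CCSP-p52 LPS pool 2, and that of Bub1b from -0.91 to -0.50 without the same pools. With all 8 arrays, 4 of the 10 proliferation markers also had a difference at the cut-off in this direction.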

How the results depend on the processing

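Of 246 counts and medians under an alternative, 217 stayed within 1.5 times the count, or within 1 SD between pools of a group for the median, and 29 moved, and of 518 values of single kinases 511 kept their direction. That SD was 0.067 for p52 on dox alone and 0.34 for p52 with LPS, so that a median that changed sign with LPS could stay within it. When single arrays were left out, the count at the cut-off was 0 to 3 for p52 on dox alone (median 0.30 to 0.47), 0 to 4 for p52 with LPS (median -0.39 to 0.30), 0 to 2 in the additive model (median 0.10 to 0.34), 0 to 9 for the difference between LPS states (median -0.81 to -0.17), 8 to 10 for LPS in WT lungs (median 0.94 to 1.20), 3 to 10 for LPS in CCSP-p52 lungs (median 0.29 to 0.81) and 9 to 10 for LPS over both genotypes (median 0.67 to 0.93). The difference between LPS states changed sign in these fits for Plk4 (-0.43 to 0.11), Ttk (-0.75 to 0.053) and Nek2 (-0.16 to 0.25), and for Nek2 also with arrays centred on their medians (-0.0048). With array weights, the additive model called 3 kinases. The filter on low values left 6 of the 10, Bub1, Bub1b, Ttk and Melk having no value, so that the counts were 1 for the difference and 6 for LPS in WT lungs (median 1.28) and over both genotypes. With both second LPS pools left out, the counts were 1 for p52 with LPS (Nek2), 2 in the additive model and 4 for the difference, where Plk4 was at 0.036. The pool number as a replicate block gave 3 on dox alone and 3 for the difference, where Plk1 and Cdk1 came to the cut-off, and 8 for LPS in CCSP-p52 lungs, where Bub1 did, and changed no other call at the cut-off. After adjustment, the count for LPS in WT lungs was 0 to 10 and that for LPS in CCSP-p52 lungs was 0 to 10 over the alternatives, the latter 0 with only its own 4 arrays. The share of all genes called was not taken under the alternatives, so these counts cannot be set against it. The causes were not tested. Each kinase had 1 probe set, so averaging probe sets could not change its value. The files give no detection calls, so how far the lowest values lie above background is unknown.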
